A study of Mus musculus with 4 samples.

Results

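Immediate early genes and genes known to rise when tissue is dissociated into single cells were followed across mammary tumors of 4 mice. The members were 10 genes chosen by their symbols: Fos (ENSMUSG00000021250), Fosb, Jun, Junb, Jund, Egr1, Atf3, Ier2, Dusp1 and Zfp36, out of 32285 genes listed, and all 10 were found. Tumors came from PyMT mice aged 17 to 18 weeks, in which the polyoma middle T antigen, driven by the mouse mammary tumor virus promoter in mammary epithelium, causes mammary tumors. All mice carried both floxed Frmd8 alleles (Frmd8fl/fl). The Cre- group (MMTV-Cre-; Frmd8fl/fl; PyMT, replicates 1 and 3) lacked the recombinase, and the Cre+ group (MMTV-Cre+; Frmd8fl/fl; PyMT, replicates 2 and 4) had Cre under the same kind of mammary promoter, so that Frmd8 was to be deleted in epithelial cells and not in the other cells. Each of the 4 libraries was made with the 10x Genomics 3' version 3 kit, after fluorescence-activated sorting and washing of the dissociated cells. The labels number the libraries as replicates, and each was taken here to come from 1 mouse.

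Immediate early genes are transcribed within minutes of a stimulus, without new protein synthesis, when kinase signaling activates transcription factors such as SRF and CREB that already sit at their promoters. Fos and Fosb proteins pair with Jun, Junb or Jund to form AP-1, which binds DNA and drives a later wave of genes. Egr1 and Atf3 are further transcription factors of this response, Ier2 encodes a nuclear protein, and Dusp1 and Zfp36 limit the response, Dusp1 by removing phosphate from MAP kinases and Zfp36 by sending unstable mRNAs to decay. In tissue digested for single-cell work, the same genes are known to respond to enzymes, warmth and time, so their levels combine what the cells did in the tumor with what they did on the bench. These 2 sources cannot be told apart in these libraries, all of which went through dissociation and sorting.

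The 4 libraries held 112729231 to 157662955 UMIs, the molecular tags that let copies of 1 RNA molecule be counted once. Barcodes with at least 1000 UMIs and at most 20% of them from mitochondrially encoded (mt-) genes were kept, which left 4922 and 5918 barcodes for the Cre- mice (replicates 1 and 3) and 5609 and 7123 for the Cre+ mice (replicates 2 and 4). Classes of cells were gated on the UMIs of 6 markers per class, and 21.6% to 35.9% of the barcodes of a library stayed unassigned. Of 13 markers outside the gate, 12 were highest in their own class in 4 of 4 libraries, and the exception, the basal keratin Krt14, was highest in epithelial barcodes in 3. Frmd8 lay at 25.5 and 26.0 CPM (UMIs of the gene per 1000000 UMIs) in epithelial barcodes of Cre- replicates 1 and 3. In those of Cre+ replicates 2 and 4 it lay at 6.63 and 12.7 CPM. Macrophages held 23.8 and 24.1 CPM in Cre- replicates 1 and 3 and 19.1 and 13.4 CPM in Cre+ replicates 2 and 4. Both Cre+ libraries were thus below both Cre- libraries in this class too. These 3' tags may lie outside the deleted part of the gene. Between 29 and 42 barcodes of a library also occurred in another library. Cre+ replicate 4 was made with Cell Ranger 4 and deposited with every barcode, and the other libraries with version 6.1.2 and as called cells, so software and genotype overlap in 1 of the Cre+ libraries.

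The promoters of 3 members are shown because these genes led different cell classes, Fos the epithelial barcodes and Dusp1 and Zfp36 the myeloid ones. Each run holds the 250 bases before the annotated start of the gene in RefSeq (build GRCm38.p6), read 5′ to 3′ on the strand of the gene, and promoters of 8 of the 10 members were matched. The windows lie at chr12:85473640-85473889 on the plus strand for Fos, at chr17:26508473-26508722 on the minus strand for Dusp1 and at chr7:28379229-28379478 on the minus strand for Zfp36. Capitals mark the core of the cAMP response element (CRE), TGACG on either strand, in Fos and Dusp1, the TATA box TATAAA in Fos, and the CArG box bound by SRF in Zfp36.
Fos: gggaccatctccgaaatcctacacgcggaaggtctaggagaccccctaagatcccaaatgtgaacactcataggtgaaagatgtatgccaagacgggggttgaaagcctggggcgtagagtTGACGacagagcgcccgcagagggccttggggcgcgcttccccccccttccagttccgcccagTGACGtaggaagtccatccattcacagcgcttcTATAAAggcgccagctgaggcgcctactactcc
Dusp1: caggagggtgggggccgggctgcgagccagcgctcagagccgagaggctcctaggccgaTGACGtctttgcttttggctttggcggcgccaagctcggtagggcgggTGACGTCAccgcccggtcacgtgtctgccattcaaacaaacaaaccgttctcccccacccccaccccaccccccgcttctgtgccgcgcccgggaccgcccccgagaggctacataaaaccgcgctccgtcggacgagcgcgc
Zfp36: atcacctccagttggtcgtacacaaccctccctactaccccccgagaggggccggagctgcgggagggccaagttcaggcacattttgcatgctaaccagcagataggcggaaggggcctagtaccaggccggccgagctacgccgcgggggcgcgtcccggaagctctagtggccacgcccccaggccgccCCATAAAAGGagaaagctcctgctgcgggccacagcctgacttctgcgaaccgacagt

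The Fos window held the CRE core at 129 and 66 bases and the TATA box at 33 bases before the start, each counted to its 5′ base. The full CRE, TGACGTCA, whose letters contain the core on both strands, was found in the Dusp1 window alone among the 8, at 143 bases before the start, and in 1.55% of all 32851 promoter windows of this length. The core TGACG was found in 5 of the 8 members (Fos, Fosb, Junb, Atf3 and Dusp1) and in 17.8% of all windows. In the 8 windows, the CArG box was found in Zfp36 alone, at 58 bases before the start, against 1.47% of all windows. The AP-1 site TGANTCA was found in 0 of the 8, against 6.75% of all windows. No promoter was matched for Egr1 and Ier2. Bases further than 250 before the start were not searched either, so the search tells nothing of CArG boxes there. A match of letters is a description and does not show that a factor was bound.

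Members of the Fos family were highest in epithelial barcodes, which hold the tumor cells, and in pericytes. The Fos level in epithelial barcodes was 2411 and 1536 CPM in Cre- replicates 1 and 3 and 3328 and 2342 CPM in Cre+ replicates 2 and 4 (2404 ± 733, SD, n = 4 mice). In pericytes, the mural cells of small vessels, Fos lay at 3050, 1766, 2399 and 1331 CPM in the same order of libraries. The barcodes gated as pericytes also held epithelial markers, most in Cre- replicate 1. Those of Cre+ replicate 4 held more fibroblast than pericyte markers. The levels of these markers are given below, and their part was not tested. T cells held far less, with 365, 359, 726 and 323 CPM, and no T cell library reached the lowest epithelial library. Fosb was more uneven between mice, with 1543 and 432 CPM in the Cre- epithelial barcodes and 1181 and 1182 CPM in the Cre+ ones, so that the Cre- libraries bracketed the Cre+ libraries. In T cells Fosb ranged from 99.6 to 378 CPM.

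The 3 Jun genes did not share a pattern. Jun, the main partner of Fos, was highest in epithelial barcodes (2242, 1868, 2440 and 1982 CPM in replicates 1, 3, 2 and 4), followed by pericytes at a mean of 1815 ± 382 CPM and fibroblasts at 1469 ± 294 CPM. Jund, which is known to be present in most resting cells, was the steadiest member in epithelial barcodes, with 1680 to 1798 CPM over the 4 libraries, while macrophages held 721, 497, 820 and 366 CPM in replicates 1, 3, 2 and 4, all below every epithelial library. Junb, often high in blood cells, was led by neutrophils with 3447, 2642, 4592 and 1950 CPM, then by macrophages at 2061 ± 611 CPM, NK cells at 1968 ± 750 CPM and T cells at 1935 ± 494 CPM. Epithelial barcodes, at 916 to 1707 CPM, ranked eighth of the 10 classes for Junb, and the lymphoid classes that were low in Fos were thus not low in Junb.

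Egr1, a zinc finger factor, was led by fibroblasts, which held 1476 and 1046 CPM in Cre- replicates 1 and 3 and 1049 and 1000.2 CPM in Cre+ replicates 2 and 4. Macrophages spread widely for this gene, from 289 CPM in Cre+ replicate 4 to 1324 CPM in Cre+ replicate 2, and epithelial barcodes ranged from 612 to 1160 CPM. Atf3, which responds to many kinds of stress, was led by epithelial barcodes (1327, 524, 1299 and 1588 CPM in replicates 1, 3, 2 and 4) and macrophages (1110, 911, 1551 and 736 CPM). T cells held 83.8 to 165 CPM of Atf3, below all libraries of both leading classes. Ier2 varied least between classes, from a mean of 356 ± 48.2 CPM in endothelial cells to 728 ± 136 CPM in epithelial barcodes.

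Both feedback genes were led by myeloid cells. Dusp1 lay at 1288, 1419, 2100 and 1023 CPM in neutrophils and at 1108, 1032, 1626 and 703 CPM in macrophages of replicates 1, 3, 2 and 4. Epithelial barcodes ranked last of the 10 classes for Dusp1, with 297, 289, 432 and 259 CPM, and did not overlap with macrophages. Zfp36 had the same 3 leading classes, with means of 1633 ± 421 CPM in macrophages, 1420 ± 622 CPM in neutrophils and 1153 ± 222 CPM in dendritic cells, against 712 ± 156 CPM in epithelial barcodes. When the 10 classes were ordered by their mean for each member, ranges over libraries separated only 3 pairs of neighbors, which were B cells above dendritic cells for Jun, NK cells above dendritic cells for Jund and fibroblasts above T cells for Atf3. All other neighbors in these orders overlapped. Barcodes gated as B cells held more macrophage than B cell markers, as given below, and the part of these markers was not tested.

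**Figure D1:**
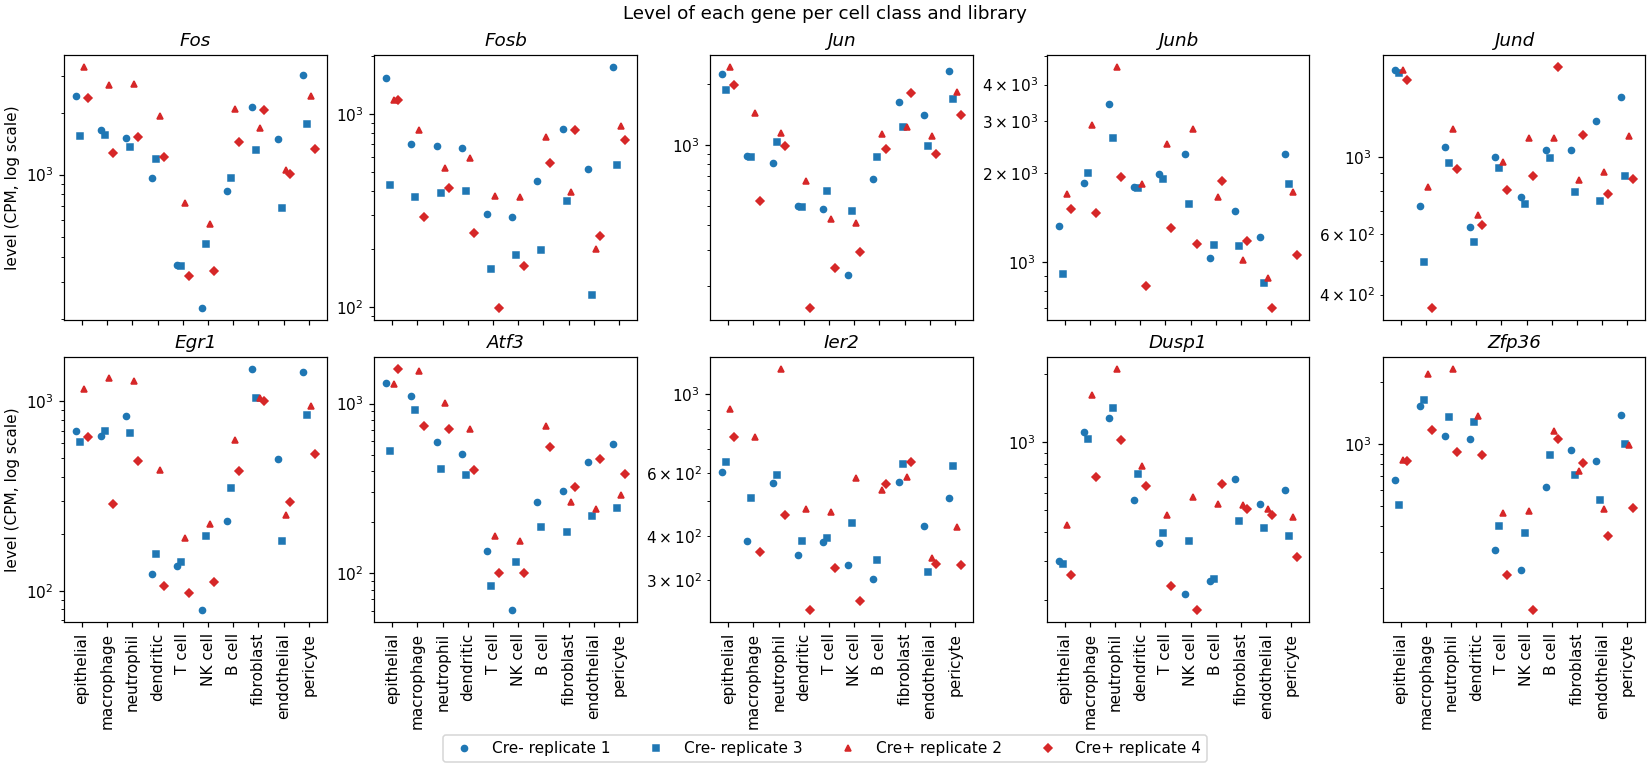
Level of each member (CPM, log scale, a panel per gene with its own axis) in 10 cell classes on the x axis; each point is 1 library, blue for Cre- and red for Cre+. Fos, Fosb, Jun, Jund, Atf3 and Ier2 are led by epithelial barcodes (Fos mean 2404 CPM), Junb and Dusp1 by neutrophils, Zfp36 by macrophages and Egr1 by fibroblasts.

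Droplets also capture free RNA, and Cre+ replicate 4, deposited with every barcode, shows its makeup. Its barcodes with up to 100 UMIs held 4981956 UMIs, in which Fos lay at 1031 CPM and Junb at 1330 CPM. T cells of the same library held Fos at 323 CPM, below the free RNA, and epithelial barcodes at 2342 CPM, above it. After thinning each barcode to 1000 UMIs, 52.1% to 59.5% of the epithelial barcodes of a library held a Fos UMI, against at most 22.2% of the T cell barcodes, whose median depth was 5750 to 11753 UMIs against 16428 to 28699 in epithelial barcodes. The part of free RNA in these shares was not tested.

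Each class was next compared with epithelial barcodes by a test on UMI sums per class and library, with the mouse as a block. A gene was called at a Benjamini-Hochberg adjusted p under 0.05 over all 13130 genes tested. In macrophages, Dusp1 (log2 fold change 2.05 ± 0.26, SE, adjusted p = 3.2e-08), Zfp36 (1.40 ± 0.27, 2.6e-05) and Junb (0.82 ± 0.23, 0.0026) were higher than in epithelial barcodes, and Jund (-1.31 ± 0.18, 1.3e-07), Jun (-0.99 ± 0.25, 0.00099) and Fosb (-0.72 ± 0.31, 0.046) were lower. Called genes made up 30.4% (higher) and 33.9% (lower) of all genes tested, so 3 of 10 in each direction is near the background. The call for Fosb was lost without a filter on low counts, without the mouse as a block, with a limit of 10% on mt- UMIs, with a gate on plain UMI sums, with barcodes of Cre+ replicate 4 called by the order of magnitude of their UMIs, and without Cre- replicate 1 or Cre+ replicate 4 (-0.61 and -0.34). The other members, Fos, Egr1, Atf3 and Ier2, had log2 fold changes between -0.31 and 0.18. Without Cre- replicate 3, 2 members were higher than in epithelial barcodes and 3 lower, against 3507 and 3904 of the 13106 genes tested.

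T cells were lower for 8 of 10 members, against 34.5% of all genes, and higher for 0 of 10, against 25.2%. Atf3 was lowest (-3.27 ± 0.32, adjusted p = 2.4e-10), followed by Fos (-2.47 ± 0.26, 1.6e-09), Egr1 (-2.46 ± 0.34, 2.1e-07), Jun (-2.34 ± 0.26, 5.2e-09) and Fosb (-2.23 ± 0.33, 7.9e-07). Zfp36 (-1.09), Jund (-0.93) and Ier2 (-0.90) were also lower, and Junb and Dusp1 had values of 0.46 and 0.18 that did not pass. Endothelial cells showed the same counts, with 8 lower (29.8% of all genes) and 0 higher (26.5%), led by Fosb (-2.16 ± 0.33, 1.1e-06) and Atf3 (-1.82 ± 0.30, 4.7e-06). Fibroblasts, which make the collagen matrix, differed for 3 members, with Dusp1 higher (0.90 ± 0.25, 0.0028; 30.8% of all genes were higher) and Atf3 (-2.01 ± 0.30, 8.1e-07) and Jund (-0.78 ± 0.18, 0.00040) lower (29.9%). The median over the 10 members was -0.03 in macrophages, -0.21 in fibroblasts, -1.08 in endothelial cells and -1.66 in T cells, and the median over all genes lay between -0.14 and -0.03 in these 4 comparisons.

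These contrasts changed when only barcodes within a range of depth were compared. Among barcodes with 2000 to 10000 UMIs only, a range chosen after seeing the data, 9 of 10 members were higher in macrophages than in epithelial barcodes and 0 lower, against 2604 and 2753 of the 9421 genes tested. In fibroblasts 8 were higher and 0 lower, against 1973 and 1474 genes. Jun moved from -0.99 to 1.16 and Fosb from -0.72 to 1.26 in macrophages, and both passed the test in the opposite direction. In T cells, Junb (2.45), Dusp1 (1.98), Jund (0.72) and Zfp36 (0.70) were higher in this range, whereas Atf3 (-2.43), Egr1 (-1.67), Fos (-0.94) and Jun (-0.74) were still lower, and over all genes 2260 were higher and 2763 lower. In endothelial cells 4 members passed, 1 higher and 3 lower, against 2065 and 1909 genes. The smallest of the sums in this range held 27 barcodes. Between 5000 and 10000 UMIs, the median mt- share was 4.62% to 10.4% in epithelial barcodes and 2.16% to 3.60% in macrophages. The part of the mt- share in these changes was not tested. Within the study's limits on depth as read here (200 to 5000 genes and under 30000 UMIs), 6 members were higher and 1 was lower in macrophages, against 3935 and 4236 of 13016 genes.

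**Figure D2:**
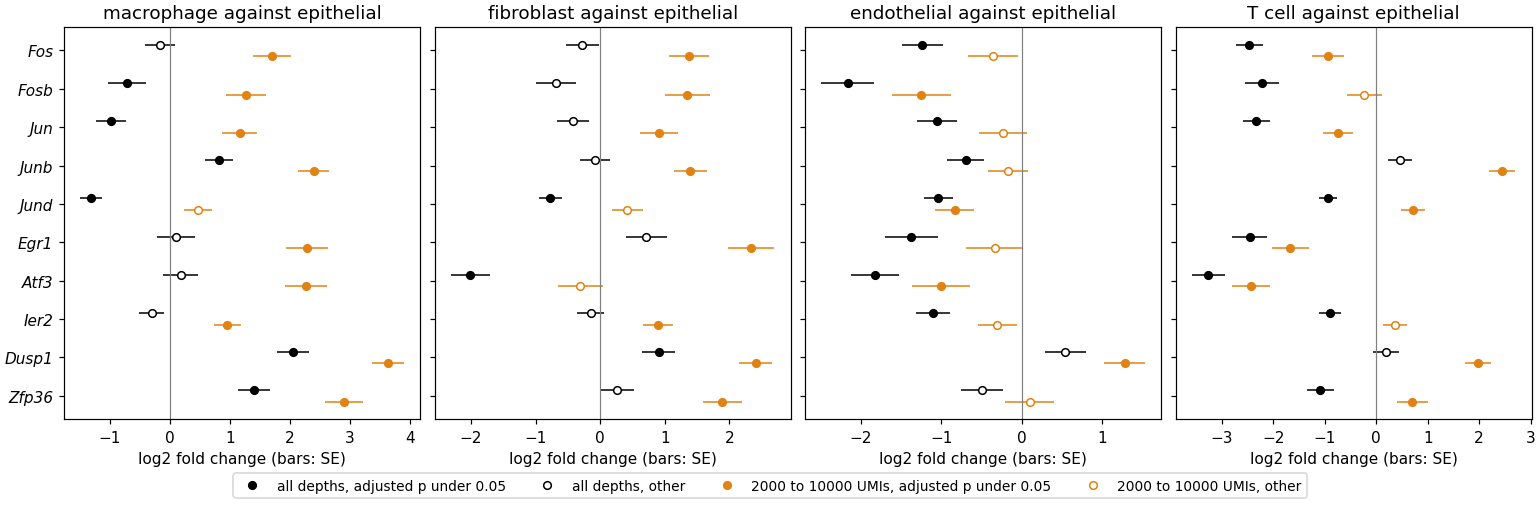
Log2 fold change of each member (rows) against epithelial barcodes, with SE bars, in macrophages, fibroblasts, endothelial cells and T cells, from sums over 4 libraries; black is all depths, orange is barcodes with 2000 to 10000 UMIs, and filled points passed the test. In macrophages the orange points lie right of the black ones for all members, Jun moving from -0.99 to 1.16.

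The other early response genes were read from a list of 31 genes, whose counts stand against the shares over all genes in the same fits, 30.4% higher and 33.9% lower in macrophages, 25.2% and 34.5% in T cells, 30.8% and 29.9% in fibroblasts and 26.5% and 29.8% in endothelial cells. In macrophages 11 were higher and 8 lower, led upward by the phosphatase gene Dusp2 (7.42 ± 0.61), the cytokine signaling inhibitor Socs3 (2.46 ± 0.47) and Nfkbiz (2.35 ± 0.35) and downward by the matrix protein gene Ccn1 (-4.86 ± 0.69), the AP-1 gene Fosl1 (-4.00 ± 0.44) and Cebpd (-2.48 ± 0.34). In T cells 7 were higher and 15 lower, with Dusp2 (8.13 ± 0.62), the nuclear receptor gene Nr4a3 (2.23 ± 0.33) and Gadd45b (1.77 ± 0.32) leading upward and Ier3 (-3.65 ± 0.34), Fosl1 (-3.44 ± 0.54) and Cebpd (-3.38 ± 0.36) downward. Fibroblasts had 5 higher and 16 lower, with Gadd45b (2.18 ± 0.32), Socs3 (1.81 ± 0.46) and Dusp2 (1.55 ± 0.57) at the top and Dusp5 (-3.67 ± 0.30), Dusp6 (-1.83 ± 0.31) and Klf6 (-1.68 ± 0.25) at the bottom. Endothelial cells had 4 higher and 18 lower, from Dusp2 (7.23 ± 0.60), Socs3 (1.79 ± 0.47) and Fosl2 (0.88 ± 0.29) to Egr2 (-3.01 ± 0.50), Egr3 (-2.67 ± 0.53) and Cebpb (-2.59 ± 0.26).

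Heat shock genes, which encode chaperones and of which some respond to warmth, served as a second list of 12. Their counts are to be read against the same shares over all genes. Hspb1 was the lowest of them in all 4 classes, at -5.08 ± 0.53 in macrophages, -3.43 ± 0.49 in T cells, -2.74 ± 0.47 in fibroblasts and -2.25 ± 0.46 in endothelial cells. In macrophages 4 were higher, among them Hspa1a (2.02 ± 0.56), Hspa5 (0.80 ± 0.25) and Hspa8 (0.55 ± 0.12), and 4 lower, with Hsp90ab1 (-0.64 ± 0.12) and Dnaja1 (-0.63 ± 0.15) after Hspb1. Of the 12, 6 were lower in fibroblasts, among them Hsp90ab1 (-1.03 ± 0.12) and Hsp90aa1 (-0.53 ± 0.15), and 6 in endothelial cells, among them Hsp90aa1 (-1.10 ± 0.15) and Hspd1 (-1.09 ± 0.15). In T cells 3 were lower, with Hsp90ab1 (-0.69 ± 0.12) and Hsp90aa1 (-0.42 ± 0.15) after Hspb1, and 1, Hsph1 (0.78 ± 0.19), was higher.

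The members' summed level changed with the depth of the barcode, and in opposite ways in different classes. Levels here are CPM of the UMIs outside mt- genes, as a description without a test. In epithelial barcodes the sum was lowest between 5000 and 10000 UMIs in 3 of 4 libraries (5776, 4089 and 5014 CPM in replicates 1, 3 and 2), and in Cre+ replicate 4 it was about the same between 2000 and 5000 UMIs (5214 CPM) as between 5000 and 10000 UMIs (5226 CPM). Between 20000 and 40000 UMIs it lay at 15393, 9646, 17139 and 14525 CPM in replicates 1, 3, 2 and 4. The summed epithelial markers moved less, from 8553, 8026, 7412 and 8002 CPM between 5000 and 10000 UMIs to 11876, 7011, 8605 and 9374 CPM between 20000 and 40000 UMIs in the same order of libraries. The median mt- share moved too, from 10.4%, 6.67%, 10.4% and 4.62% to 5.29%, 5.34%, 4.75% and 4.25%, and its part in these levels was not tested.

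Macrophages peaked in between. Their sum in Cre- replicate 1 was 8022 CPM between 1000 and 2000 UMIs, 21595 CPM between 5000 and 10000 UMIs and 3528 CPM above 40000 UMIs. Replicates 3, 2 and 4 peaked at 12472, 21543 and 10816 CPM, each between 5000 and 20000 UMIs. T cells had less between 10000 and 20000 UMIs (2709 to 4428 CPM) than between 2000 and 5000 UMIs (6389 to 9595 CPM). Between 20000 and 40000 UMIs the T cell sum was higher again where at least 20 barcodes were found. It went from 3756 to 4202 CPM in Cre- replicate 1 and from 2709 to 3471 CPM in Cre+ replicate 4. T cell markers fell there, from 5266 to 3618 CPM and from 5561 to 4126 CPM. The rank correlation over barcodes between the members' share and the number of UMIs was 0.37, 0.26, 0.49 and 0.47 in epithelial barcodes of replicates 1, 3, 2 and 4 and 0.05, 0.04, 0.15 and 0.21 in macrophages. Both measures come from the same barcode and share its depth.

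**Figure D3:**
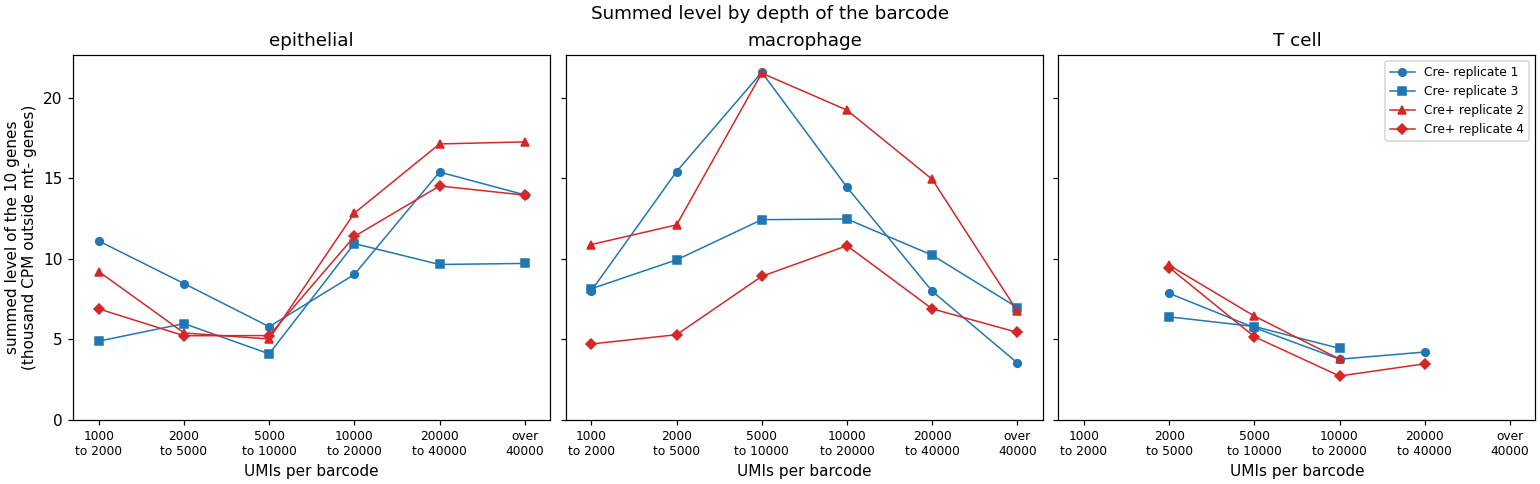
Summed level of the 10 members (in 1000 CPM outside mt- genes) against the UMIs per barcode in 6 ranges, for epithelial barcodes, macrophages and T cells; each line is 1 library, and points with under 20 barcodes are left out. In 4 of 4 libraries the epithelial line is higher between 20000 and 40000 UMIs than between 5000 and 10000 UMIs (17139 against 5014 CPM in Cre+ replicate 2), the macrophage line peaks between 5000 and 20000 UMIs and the T cell line is lower between 10000 and 20000 UMIs than between 2000 and 5000 UMIs.

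The share of mt- UMIs, which is often read as a sign of damaged or leaking cells, was compared within classes and mice. Barcodes with 10% to 20% mt- UMIs were set against those with under 5%, with mt- genes left out of the table. In epithelial barcodes all 10 members were lower at the high share, against 17.0% of the 13673 genes tested, and 0 were higher, against 13.8%. Fos lay at 3309, 1728, 3894 and 2567 CPM at the low share in replicates 1, 3, 2 and 4 and at 1302, 1380, 1244 and 1549 CPM at the high share, a decrease in 4 of 4 mice (-1.17 ± 0.18, adjusted p = 0.00077). Atf3 had the largest decrease, from 1838, 601, 1614 and 1707 CPM to 673, 387, 443 and 812 CPM (-1.42 ± 0.16, 0.00017). The remaining members lay between Junb (-1.22 ± 0.16, 0.00037) and Jun (-0.93 ± 0.16, 0.0013), with Dusp1 at -1.19, Zfp36 at -1.02, Ier2 at -0.998, Egr1 at -0.98, Fosb at -0.97 and Jund at -0.96. The median over members was -1.01 and that over all genes -0.01. Without the scaling by TMM the median over all genes moved to 0.15 and calls over all genes to 3073 higher and 1174 lower, from 1884 and 2319, and all 10 members were still lower. Without the mouse as a block, the values stayed as large (-1.44 to -0.90) and 9 of 10 had an unadjusted p under 0.05, but 1 of 10 passed the test, as did 23 higher and 5 lower of the 12700 genes tested.

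The wider lists moved the same way in epithelial barcodes. Of the 31 early response genes 27 were lower and 0 higher, led by Klf4 (-1.41 ± 0.13), Maff (-1.41 ± 0.15) and Fosl1 (-1.35 ± 0.22), and the median was -0.90. Of the heat shock genes 6 of 12 were lower and 0 higher, led by Dnajb1 (-0.89 ± 0.14), Hspb1 (-0.75 ± 0.12) and Hspa8 (-0.46 ± 0.09), and a median of -0.36, and the difference between the lists was not tested. Depth moved with the mt- share, since the median was 8291 to 13192 UMIs at the high share and 15093 to 32127 at the low share. Among epithelial barcodes with 2000 to 10000 UMIs, 9 of 10 members were lower at the high share and 0 higher, against 2251 and 2469 of the 9537 genes tested. Summed epithelial markers were 6791 to 10175 CPM at the high share and 7526 to 13992 CPM at the low share, lower in 4 of 4 mice, and their part in the result was not tested.

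The mice differed in how the members followed the mt- share. Across epithelial barcodes the rank correlation between the members' share and the mt- share was -0.41 and -0.39 in replicates 1 (Cre-) and 2 (Cre+), and -0.02 and 0.11 in replicates 3 (Cre-) and 4 (Cre+). In Cre+ replicate 2 the sum fell from 17918 CPM under 5% through 15696 and 7085 CPM to 3674 CPM between 15% and 20%. Over the same ranges it went from 16753 to 6733 CPM in Cre- replicate 1 and from 13834 to 7756 CPM in Cre+ replicate 4. Cre- replicate 3 went from 9876 CPM under 5% to 7803 CPM between 10% and 15%, its highest range with at least 20 barcodes. The split of the correlations into 2 mice of each kind ran across genotypes. Depth was split in the same way. Its rank correlation with the mt- share was -0.08 and -0.18 in replicates 1 and 2 and 0.11 and 0.29 in replicates 3 and 4. Among barcodes with 2000 to 10000 UMIs, the members' correlation with the mt- share was -0.16, -0.27, -0.06 and 0.04 in replicates 1, 2, 3 and 4. The part of depth in the split was not tested.

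Macrophages showed no such common decrease. At the high share 2 of 10 members were lower, against 10.9% of the 12318 genes tested, namely Atf3 (-0.71 ± 0.15, adjusted p = 5.7e-05) and Fos (-0.58 ± 0.15, 0.0011), and 2 were higher, against 7.74%, namely Egr1 (0.47 ± 0.15, 0.011) and Jund (0.44 ± 0.15, 0.021). Egr1 lay at 616, 706, 1327 and 290.1 CPM at the low share and at 1594, 1253, 1542 and 445 CPM at the high share in replicates 1, 3, 2 and 4. In the same order, Fos went from 1681, 1611, 2850 and 1307 CPM to 1747, 1436, 1819 and 981 CPM. It was thus higher at the high share in Cre- replicate 1. Atf3 went from 1143, 951, 1656 and 761 CPM to 1114, 869, 903 and 482 CPM. The SEs of all 10 members lay between 0.146 and 0.15, so they tell little of the spread of each gene between mice. The other 6 members had values between -0.29 and 0.04. Without TMM the median over all genes moved from 0.03 to 0.32, calls over all genes from 954 higher and 1344 lower to 1886 and 477, and Fos no longer passed. With DESeq2 in place of edgeR, among barcodes with 2000 to 10000 UMIs, without a filter on low counts, without Cre- replicate 1 and without Cre- replicate 3, Egr1 and Jund did not pass, within the study's limits Jund did not, and without Cre+ replicate 2 Fos did not (-0.46). Without the mouse as a block, 0 members passed, as did 239 higher and 205 lower of the 11070 genes tested, so this count says little of the members. Leaving out Cre- replicate 1 gave 4 members lower at the high share and 0 higher, against 1311 and 868 of the 12363 genes tested. The median over members was then -0.27, and 3 of 10 had a positive value.

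Of the 31 early response genes in macrophages, 2 were higher at the high share and 3 lower, near the 7.74% and 10.9% of all genes. Ccn1 (1.93 ± 0.21) and Egr2 (0.60 ± 0.20) were higher, and Dusp2 (-1.01 ± 0.18), Socs3 (-0.58 ± 0.15) and Gadd45b (-0.48 ± 0.16) lower. Of the 12 heat shock genes 0 were higher and 3 lower, namely Hspe1 (-0.82 ± 0.16), Hspd1 (-0.63 ± 0.18) and Hspa8 (-0.41 ± 0.14), against the same shares. Markers of epithelial cells moved with these values, since their sum was 294 to 688 CPM in macrophage barcodes of the high share and 97.1 to 130.2 CPM in those of the low share. Fibroblast markers were also higher at the high share in 4 of 4 libraries, at 94.0 to 243 CPM against 26.1 to 99.6 CPM. The macrophage markers summed to 11151 to 14160 CPM at the high share and to 16447 to 18318 CPM at the low share. The high share rested on 42 to 65 barcodes per library with a median of 3048 to 3778 UMIs. The part of epithelial and fibroblast RNA in these values was not tested.

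**Figure D4:**
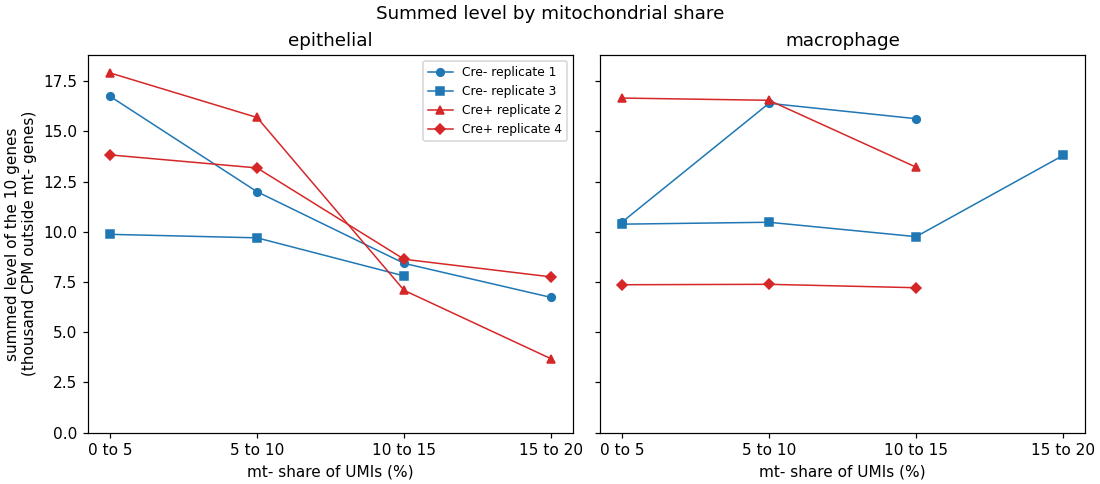
Summed level of the 10 members (in 1000 CPM outside mt- genes) against the mt- share of UMIs in 4 ranges, for epithelial barcodes and macrophages; each line is 1 library, blue for Cre- and red for Cre+, and points with under 20 barcodes are left out. Epithelial lines fall in 4 of 4 libraries (17918 to 3674 CPM in Cre+ replicate 2), and macrophage lines have no common direction.

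The order of the mice differed between immune and vascular cells. In macrophages Cre+ replicate 2 was the highest library for 10 of 10 members (29.1% of the 13115 genes tested) and Cre+ replicate 4 the lowest for 10 of 10 (50.2%). Their summed level was 10608 and 10099 CPM in Cre- replicates 1 and 3 and 16167 and 7176 CPM in Cre+ replicates 2 and 4, so that the Cre+ mice lay on both sides of the Cre- mice. Cre+ replicate 2 also led 9 members in neutrophils (27.6% of the genes tested), 9 in dendritic cells (27.2%), 9 in NK cells (26.0%) and 8 in T cells (21.1%). Its neutrophil barcodes held macrophage markers at 4158 CPM, against 1640 to 2686 CPM in the other libraries, and their part was not tested. In endothelial cells and pericytes, by contrast, Cre- replicate 1 led 9 of 10 members each (29.7% and 24.3% of the genes tested there), with sums of 8645 CPM and 15487 CPM. The other 3 libraries summed to 5060 to 5978 CPM in endothelial cells and to 7442 to 11103 CPM in pericytes. Cre- replicate 1 was also highest in epithelial markers, which lay at 2567, 364, 1124 and 338 CPM in pericytes of replicates 1, 3, 2 and 4 and at 600.4 CPM against 283 to 479 CPM in endothelial cells. Their part in these orders was not tested.

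**Figure D5:**
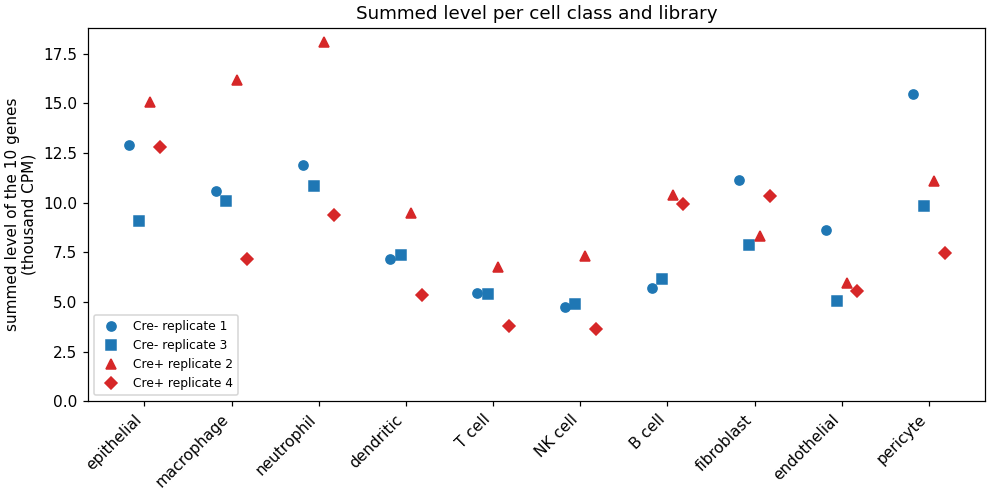
Summed level of the 10 members (in 1000 CPM, linear axis) in 10 cell classes; each point is 1 library, blue for Cre- and red for Cre+. Cre+ replicate 2 is the highest point in macrophages (16167 CPM), neutrophils, dendritic, T, NK and B cells and in epithelial barcodes, and Cre- replicate 1 in fibroblasts, endothelial cells and pericytes.

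Between genotypes, 0 of 10 members were called in epithelial barcodes, macrophages or fibroblasts, where edgeR called 0% of all genes tested. DESeq2 called 0 members too, and over all genes 52 higher and 13 lower in epithelial barcodes, 6 and 6 in macrophages and 23 and 53 in fibroblasts. At an unadjusted p under 0.05, edgeR gave 0 members in each of the 3 classes and 372, 258 and 627 of all genes. In epithelial barcodes all 10 members had a positive log2 fold change of Cre+ over Cre- (0.01 to 0.70, median 0.47, against 0.01 over all genes), with Fos at 0.56 ± 0.33 and Atf3 at 0.70 ± 0.51. The Cre+ libraries lay above both Cre- libraries for Junb, Ier2 and Zfp36, 3 of 10, against 13.4% of all genes. Ier2 was at 604 and 643 CPM in Cre- replicates 1 and 3 and at 907 and 757 CPM in Cre+ replicates 2 and 4. This direction changed with the range of depth compared. Among epithelial barcodes with 2000 to 10000 UMIs 2 of 10 members were positive, with a median of -0.28 and Fos at -0.16. Within the study's limits 7 of 10 were positive, with a median of 0.04. Median depth over all epithelial barcodes was 28699 and 28049 UMIs in Cre- replicates 1 and 3. It was 17833 and 16428 UMIs in Cre+ replicates 2 and 4, and its part in the fold changes was not tested.

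In macrophages Fos had a log2 fold change of 0.40 ± 0.38 and Egr1 one of 0.30 ± 0.65, and the large errors came with the spread between the Cre+ mice. Without Cre+ replicate 2 Egr1 was called lower in the remaining Cre+ mouse (-1.07, adjusted p = 0.0020), a fit in which 1072 genes were called higher and 1160 lower, and without Cre+ replicate 4 it was at 0.98 (0.086). These fits take the lone Cre+ mouse to vary like the Cre- mice. In fibroblasts Fos was at 0.16 ± 0.27. In pericytes all 10 members had negative values (-0.69 to -0.23), none of which passed. Beside the epithelial markers given above, fibroblast markers in the pericytes of Cre+ replicate 4 (10548 CPM) exceeded the pericyte markers (5886 CPM), whereas the other libraries held 4713 to 5284 CPM against 10255 to 11048 CPM, and the part of either was not tested. The lists gave no call either: Cebpd (0.90 ± 0.21) and Zfp36l2 (0.59 ± 0.19) had the smallest p of the early response genes in epithelial barcodes, Egr3 (-1.25 ± 0.44) and Egr2 (-0.88 ± 0.50) in macrophages and Dusp5 (-1.57 ± 0.20) and Dusp6 (-1.50 ± 0.22) in fibroblasts. Of the heat shock genes these were Hspa1b (-0.82 ± 0.38) and Hsph1 (-0.46 ± 0.23) in epithelial barcodes, Hspa1b (-0.77 ± 0.38) and Hspa1a (-0.64 ± 0.40) in macrophages and Dnajb1 (-0.74 ± 0.14) and Hsph1 (-0.56 ± 0.16) in fibroblasts.

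Barcodes gated as B cells, 23 and 26 in the Cre- libraries and 40 and 104 in the Cre+ libraries, were the class in which both Cre+ libraries lay above both Cre- libraries for 10 of 10 members, against 22.2% of the 5624 genes tested. Dusp1 was at 244 and 248 CPM in Cre- replicates 1 and 3 and at 533 and 653 CPM in Cre+ replicates 2 and 4 (1.16 ± 0.26), and Atf3 at 263 and 187 CPM against 740 and 551 CPM (1.45 ± 0.31). No member passed the test (lowest adjusted p = 0.75), and 6 had an unadjusted p under 0.05, as had 286 of the 5624 genes. Median depth also differed, with 15108 and 8875 UMIs in the Cre- and 5966 and 3957 UMIs in the Cre+ B cells. Macrophage markers summed to 6909 and 5450 CPM in these barcodes of Cre- replicates 1 and 3 and to 7199 and 8240 CPM in those of Cre+ replicates 2 and 4, above the B cell markers (1567, 1006, 1058 and 2484 CPM). The part of depth and of these markers in the values was not tested. This class was singled out after its values had been seen.

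Within a class, barcodes high in 1 member were high in the others. Over epithelial barcodes with at least 5000 UMIs the median rank correlation of the 45 pairs of members was 0.73, 0.51, 0.75 and 0.69 in replicates 1, 3, 2 and 4, against 0.19, 0.14, 0.17 and 0.21 for the 66 pairs of heat shock genes. Fos and Egr1 were the closest pair (0.70 to 0.87), and the lowest of all pairs was 0.34. In macrophages the medians were 0.58, 0.48, 0.53 and 0.48, against 0.13, 0.17, 0.15 and 0.17, and the closest pair was Junb and Zfp36 (0.73 to 0.80). The barcodes of a library share its preparation and their depth, so these are descriptions. The members also spread widely between barcodes of 1 class, since they took a median of 0.97% of the UMIs of an epithelial barcode in Cre- replicate 1, 0.0997% at the 10th percentile and 2.35% at the 90th.

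Across the 40 sums of class and library, Egr1 (Pearson r = 0.84), Fos (0.84), Fosb (0.82) and Ier2 (0.80) followed the sum of the other members most closely on log2(CPM + 10), and Jund (0.37) and Junb (0.28) least. Among the 6456 genes with a mean of at least 20 CPM, genes outside the members most like their sum included Neat1 (0.79), a nuclear noncoding RNA, the proteoglycan gene Sdc4 (0.76), and the enzyme genes Xdh (0.75) and Aldh2 (0.75). These 40 sums share mice, libraries and classes.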

How the data were processed

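Values were raw counts of UMIs, which the authors deposited as a matrix for each library, made with Cell Ranger (6.1.2 in the file headers of 3 libraries, 4 in that of Cre+ replicate 4). The processing notes of the submitters name build hg38, but the deposited gene identifiers are mouse, and the mouse build is not given in the sources used here. Members and gene lists were chosen with earlier results of these data known. All members are named. Of the lists, up to 3 called genes per direction with the largest change are named, or the 2 with the smallest p.

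Barcodes were gated with at least 3 UMIs from at least 2 of 6 markers of a class. The share of these markers had to be at least 1 times the mean over all barcodes. This ratio also had to be at least 2 times that of every other class with at least 3 UMIs from at least 2 markers. No doublet caller was run. Barcodes without such a lead over a rival class stayed unassigned, and assigned barcodes could still hold markers of other classes. Counts were summed per library and class (at least 20 barcodes) and tested with the quasi-likelihood test of edgeR 4.0.16 (TMM, filterByExpr, R 4.3.3). Genotypes were compared as 2 against 2 mice. Comparisons within mice had the mouse as block, since classes of 1 library were taken to come from 1 mouse. The study describes its Cre- and Cre+ mice as littermates, but which of these 4 mice share a litter is not given in the sources used here. The adjusted p threshold was 0.05. DESeq2 1.42.0 was an alternative. Genotype fits in classes other than epithelial barcodes, macrophages and fibroblasts were added after seeing the data. Fits were tested on simulated counts without differences between mice. The simulated spread was set below that of the genotype fit in epithelial barcodes, so this test tells little of the power there. SDs are over mice. Levels are not comparable between genes. Of the 5 genes closest to the members' sum, 1 is not reported here.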

Additional observations from a re-analysis of the deposited data

Results flagged for a closer look

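Some signal of the members lay outside the barcodes compared in the report, where no control samples exist. Barcodes with up to 100 UMIs in Cre+ replicate 4, which hold free RNA, had the members at a summed 6937 CPM, against 9072 CPM in the kept barcodes of that library. With mt- genes left out of the total, the kept level divided by the free level ran from 0.80 for Ier2 to 1.89 for Jun. Barcodes with over 50% mt- UMIs, which had been left out, held the members at 7055 and 5395 CPM outside mt- genes in the Cre- mice (replicates 1 and 3) and at 7350 and 7007 CPM in the Cre+ mice (replicates 2 and 4). Over all classes, barcodes with 15% to 20% held 5896, 5546, 3407 and 5069 CPM in replicates 1, 3, 2 and 4. Those with 20% to 50% held 6937, 6021, 4739 and 7433 CPM. The sum thus did not keep falling above 20%, and the part of cell classes and free RNA was not tested. Groups of 2 mice are too small for a check of single samples that stand apart.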

How the results depend on the processing

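Of 113 recomputed counts and shares, 103 stayed within 1.5 times the reported count or within its spread, and of 541 recomputed fold changes of single members 476 kept their direction and their side of the threshold, 50 lost the call and 15 changed sign. The counts were compared without their direction. Among barcodes with 2000 to 10000 UMIs, macrophages against epithelial barcodes went from 3 members higher and 3 lower to 9 and 0. T cells went from 0 and 8 to 4 and 4, and both stayed within the 1.5 times. Genotype counts of 0 came where edgeR called 0% of all genes tested, so their staying alike says little. The range of 2000 to 10000 UMIs, added for all but the mt- comparisons after seeing the data, gave 8 called members between fibroblasts and epithelial barcodes, 4 between endothelial and epithelial barcodes and 2 for the mt- share in macrophages. Over all genes in that range, 1973 were higher and 1474 lower of 9421 in fibroblasts, and 2065 and 1909 in endothelial cells. For the mt- share in macrophages 474 were higher and 910 lower of 7857. In that range the fold change turned to 1.26 for Fosb, 1.16 for Jun and 0.47 for Jund in macrophages, to 0.42 for Jund in fibroblasts and to 0.72 for Jund, 0.37 for Ier2 and 0.70 for Zfp36 in T cells. Between genotypes it turned to -0.16 for Fos in epithelial barcodes and to -0.0028 for Fos and -0.17 for Egr1 in macrophages. The study's limits turned Fosb to 0.13 and Jun to 0.043 in macrophages. Without the replicate block, 1 member was called for the mt- share in epithelial barcodes and 0 in macrophages, and in the class comparisons 3 to 8 were. Over all genes, 23 were then higher and 5 lower of 12700 for the mt- share in epithelial barcodes, and 239 and 205 of 11070 in macrophages. In the class comparisons 3075 to 3746 were higher and 3564 to 4197 lower of 13130. DESeq2 and the fit without a filter each called 2 for the mt- share in macrophages. Over all genes, DESeq2 called 780 higher and 683 lower there, and the fit without a filter 658 and 1445. Leaving out 1 mouse at a time gave 2 to 4 members there, 0 to 1 between genotypes in macrophages (1 without Cre+ replicate 2), a Fos fold change of -0.17 to 0.78 and an Egr1 fold change of -1.07 to 0.98 in macrophages, and a Fos fold change of -0.15 to 0.54 in fibroblasts. In the fits of the mt- share in macrophages with 1 mouse left out, 482 to 868 of all genes were higher and 823 to 1311 lower. Without thinning, the mean share of epithelial barcodes with a Fos UMI was 81.7%, against 57.4% with it. The causes were not tested. Some of these settings use fewer barcodes, mice or genes. DESeq2 and the fit without a filter tested more genes, 19805 against 12318 for the mt- share in macrophages. The number of barcodes limits the small classes: B cells held 23 barcodes in Cre- replicate 1.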
